A study of Mus musculus with 28 samples.

Results

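Naïve sensory neuron libraries of low and of high RNA integrity were compared. RNA integrity was scored as the RNA integrity number (RIN), which is read from the electrophoresis trace of a sample and is lower the more its ribosomal RNA is broken up. Of the 28 RNA-seq libraries in the series, 22 were naïve, and 5 of these had a RIN under 8 (low RIN) and 9 a RIN of 9 or more (high RIN). The other 7 naïve libraries with a value, here called the middle libraries, had a RIN between 8.2 and 8.6 and entered only the relations with RIN, and 1 library, male 8, had no value. The study set male against female neurons in naïve mice, sorted by FACS, and after partial sciatic nerve ligation. The libraries after ligation were not used here.

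All 22 libraries came from uninjured AdvGFP mice (Tg(Avil-EGFP)) aged 3 to 6 months, in which the advillin promoter drives GFP in sensory neurons. Cells were gated as GFP positive and propidium iodide negative, and the ganglia of a pair of mice of 1 sex were pooled into each library. The sort does not free every neuron of its satellite glia, since some of these cells stay attached. Ganglia were trigeminal for a few replicates and lumbar dorsal root ganglia for the rest, and the labels do not give which. The 5 low RIN libraries were male 3 with a RIN of 5.2, male 7 with 5.5, male 4 with 6.7, male 2 with 7.6 and female 4 with 7.7. The 9 high RIN libraries were female 6 and male 9 with a RIN of 9.0, female 3, female 5 and female 8 with 9.1, female 11 with 9.2, male 5 with 9.5, female 1 with 9.6 and female 10 with 9.9. The values nearest to the cut-offs were 7.7 and 8.2 at the lower one and 8.6 and 9.0 at the upper one. Sex and RIN class overlapped strongly: 4 of the 5 low RIN libraries were male against 2 of the 9 high RIN libraries. Mice were processed in batches matched for sex, so the values within males are given beside the main results, and among females the comparison was 1 library against 7. The RIN itself was uncertain in this range, because samples scoring below 8 were kept when their RNA was too dilute for a dependable score.

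When RNA breaks, the loss is usually greater for long transcripts than for short ones, since a single break is enough to part a long message from its poly(A) tail. Dissociation and sorting expose ganglion cells to enzymes and to time outside the animal. In bulk libraries such as these, fewer cells of a type and less RNA per cell cannot be told apart.

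Sequencing depth and the number of genes seen differed between the classes by less than the spread between libraries. Input reads ranged from 25698515 to 40035653 in low RIN libraries and from 24800048 to 33816860 in high RIN libraries. Of 45952 listed genes, 13444 reached an FPKM of 1 in 3 or more naïve libraries and were tested. Of all listed genes, those detected at an FPKM of at least 1 numbered 11174 ± 682 (SD, n = 5) in low RIN libraries. In high RIN libraries they numbered 11219 ± 223.9 (SD, n = 9; exact permutation test, two-sided, p = 0.865). Tested genes listed at 0 numbered 964 ± 473 and 752 ± 288 (exact permutation p = 0.307). The share of uniquely mapped reads was 85.3% ± 1.97 and 84.3% ± 3.55 (exact permutation p = 0.593). The 100 leading genes took 31.9% ± 2.27 and 31.7% ± 1.79 of the summed FPKM (exact permutation p = 0.910). A library's median correlation with the other libraries was 0.879 ± 0.0212 in low RIN and 0.900 ± 0.0195 in high RIN libraries (exact permutation p = 0.0844, 0.338 adjusted over 8 measures by Benjamini-Hochberg). This last measure rested on the lowest integrities: its Pearson correlation with RIN was 0.46 over 21 libraries (permutation p = 0.0321) and 0.02 without male 3 and male 7. The class comparison of input reads gave an exact permutation p of 0.261. The trunk Hox genes, expressed in the ganglia of the trunk and not of the head, had a summed FPKM of at most 0.783 in 4 naïve libraries (male 2, female 11, female 2 and male 10) and of at least 108.5 in the others.

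Long genes were lower relative to short genes in the low RIN libraries. For each library, the median log2(FPKM + 1) of genes with an exon length above 6538.5 bases was set against that of genes under 2401 bases, the lengths being those of all annotated exons of a gene laid together. The difference of medians was -0.667 in male 3, -0.528 in male 4, -0.459 in male 2, -0.281 in female 4 and -0.241 in male 7. In the high RIN libraries it ran from -0.336 to 0.125, with a median of -0.144. Male 3, male 4 and male 2 were below every high RIN library, and female 4 and male 7 lay within the high RIN range. The means were -0.435 ± 0.176 (SD, n = 5) and -0.124 ± 0.155 (SD, n = 9), a difference of -0.31 on the log2 scale (exact permutation test, two-sided, p = 0.0045, 0.036 adjusted over 8 measures). Within males alone the difference was -0.46 (exact permutation p = 0.0667, the smallest that 4 against 2 libraries allow), and permuting within each sex gave p = 0.0417 (0.289 adjusted). The call did not hold without male 3, male 4 or male 2 (adjusted exact permutation p = 0.145, 0.112 and 0.0783), nor without female 10 (0.0559) or without male 9, female 3, female 5, female 6 or female 11 (0.0684 each). It held without any 1 of the other 5 libraries.

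The relation with RIN across all 21 libraries was weaker than the class difference, and 1 middle library stood far apart. Pearson's r between RIN and the long minus short value was 0.40 (permutation p = 0.0766, 0.176 adjusted over 8 measures) and Spearman's rho 0.53 (permutation p = 0.0158, 0.127 adjusted). Without male 3 and male 7, the libraries farthest from the median RIN, r was 0.40 (n = 19, permutation p = 0.0921). Within sex, r was 0.29 over 10 male and 0.47 over 11 female libraries. Male 11, with a RIN of 8.6, had a value of -1.24, while the other middle libraries ran from -0.350 to -0.0723. Without male 11, an alternative added after the data were seen, r was 0.69 (n = 20, permutation p = 0.00085) and rho 0.58 (permutation p = 0.00853). Male 11 had a lower long minus short value than each of the 5 low RIN libraries, although its integrity was scored well above theirs.

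**Figure D1:**
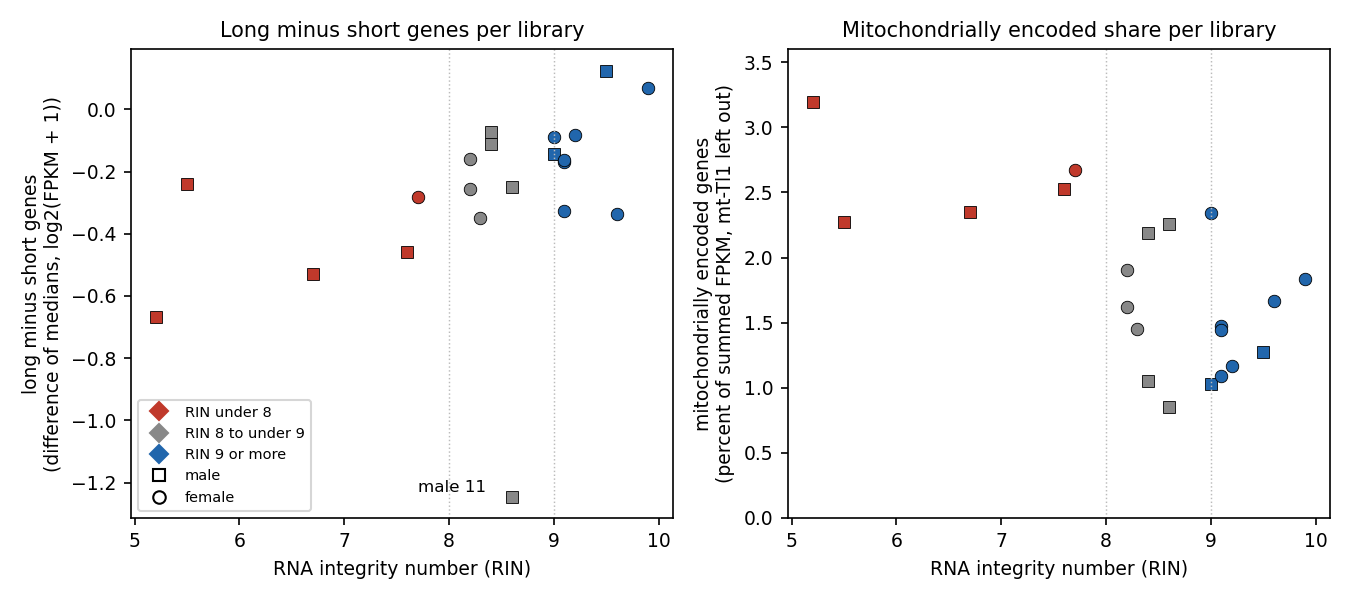
Long minus short genes (left, difference of medians on the log2(FPKM + 1) scale) and the share of summed FPKM in mitochondrially encoded genes with mt-Tl1 left out (right, percent) against RIN, 1 point per library, squares for males and circles for females, coloured by RIN class. Of the 5 low RIN libraries 3 lie below every high RIN library on the left, male 11 sits alone at -1.24, and on the right female 6 is the only high RIN library within the low RIN range of 2.27% to 3.19%.

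The difference between the classes fell with gene length in the shorter part of the range and was nearly flat beyond it. The 13387 tested genes with an exon length (99.6%) were split into 10 groups of similar size by length. In the shortest group, with a median length of 714 bases, the median low minus high RIN difference was 0.21 and 67.7% of genes were higher in low RIN. The next group, with a median of 1644 bases, had the same median of 0.21. The median then fell to 0.14, 0.08 and 0.04 in the groups with median lengths of 2401, 3053 and 3749 bases. In the 5 longer groups, from a median length of 4498 bases on, it lay between -0.05 and 0.00. In the longest group, with a median of 12224 bases, the median difference was -0.03 and 46.2% were higher. Over all tested genes the median difference was 0.05. Quantile normalisation moved the medians of the shortest and longest groups to 0.11 and -0.11, and males alone gave 0.30 and -0.10, so the longest group was below the shortest under each. These are descriptions across genes, which are not independent replicates. No test over genes was made.

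**Figure D2:**
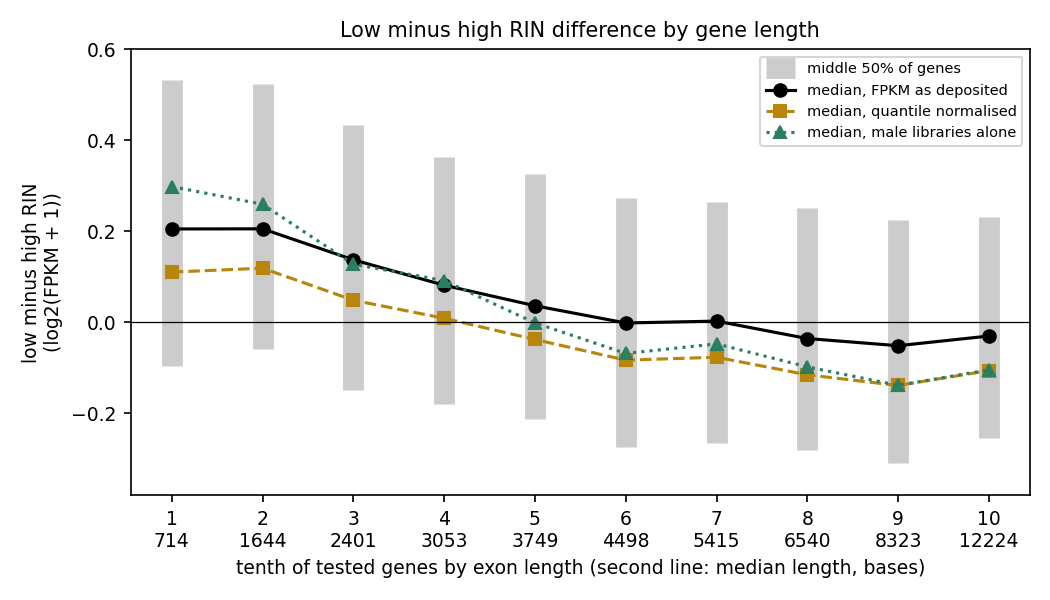
Low minus high RIN difference on the log2(FPKM + 1) scale (vertical axis) in 10 groups of tested genes ordered by exon length (horizontal axis, median length in bases below), with the median per group as deposited, after quantile normalisation and in males alone, and grey bars over the middle 50% of genes. The median is 0.21 in the first 2 groups, falls to near 0 by the sixth and stays between -0.05 and 0.00 in the 5 longest.

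Mitochondrially encoded genes took a larger share of the FPKM in low RIN libraries once a single tRNA gene was left out. With every mitochondrial gene counted, the share was 2.60% ± 0.363 (SD, n = 5) in low RIN and 1.95% ± 1.39 (SD, n = 9) in high RIN libraries (exact permutation p = 0.365, 0.584 adjusted over 8 measures). The spread in high RIN libraries came from male 5, at 5.49%, in which the leucine tRNA gene mt-Tl1 was listed at 24576 FPKM. Without male 5 the difference was 1.10 percentage points and passed the threshold (exact permutation p = 0.00233, 0.0186 adjusted). This gene was listed at 25664 FPKM in male 1, a middle library, and at 0 in the other 20 naïve libraries. FPKM divides by length, so a gene as short as a tRNA takes a very large value from few reads, and its exact 0 can be a failed estimate. Without mt-Tl1, a choice made after the data were seen, the share was 3.19% in male 3, 2.67% in female 4, 2.53% in male 2, 2.35% in male 4 and 2.27% in male 7. The high RIN libraries ran from 1.03% in male 9 to 2.34% in female 6 and had a mean of 1.48% ± 0.419 (SD, n = 9). Female 6 reached the low RIN range and the other 8 lay below it. The difference of 1.12 percentage points gave an exact permutation p of 0.000999 (0.00799 adjusted over 8 measures), and within males it was 1.44 (exact permutation p = 0.0667, the smallest possible there). Pearson's r with RIN was -0.66 (n = 21, permutation p = 0.00093) and Spearman's rho -0.58 (permutation p = 0.00645), and r was -0.51 without male 3 and male 7 (n = 19, permutation p = 0.0247). Within sex, r was -0.75 over 10 male libraries (permutation p = 0.0131) and -0.41 over 11 female libraries (permutation p = 0.211).

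Gene by gene, no difference between the classes passed the threshold. In limma on log2(FPKM + 1), with sex as a covariate, 0 of 13444 genes (0%) had a Benjamini-Hochberg adjusted p under 0.05, and the smallest was 0.057. An unadjusted p under 0.05 was reached by 1580 genes (11.8%), of which 1021 (7.59%) were higher and 559 (4.16%) lower in low RIN. That split depended on the scaling, with 733 higher and 853 lower after quantile normalisation and 902 higher and 649 lower with median-of-ratios scaling. At an adjusted p under 0.1 there were 18 genes (0.134%), 15 higher (0.112%) and 3 lower (0.0223%). The counts at an adjusted p under 0.05 were 5 after quantile normalisation, 6 without the sex covariate, 3 within males and 12 without female 4.

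Among genes higher in low RIN, the smallest p in limma were those of H2-Eb1, Gm15417, Dcdc5, mt-Rnr1, Cox7a1 and mt-Rnr2, in that order. mt-Rnr1, the small ribosomal RNA of the mitochondrion (mm10, chromosome MT, bases 70 to 1024), was at 2419 FPKM in male 3, 1396 in male 7, 1763 in male 4, 1762 in male 2 and 1665 in female 4. High RIN libraries held 350 to 1023 FPKM with a median of 728, so that every low RIN library was above every high RIN library. Among the middle libraries male 11 had 2562 and the others 468 to 1166. The difference for mt-Rnr1 was 1.56 on the log2(FPKM + 1) scale (SE 0.26, limma adjusted p = 0.057). mt-Rnr2, the large mitochondrial ribosomal RNA (chromosome MT, bases 1094 to 2675), held 2618 to 3980 FPKM in low RIN and 1070 to 2201 in high RIN libraries, again with no overlap, and differed by 1.20 (SE 0.21, limma adjusted p = 0.066). With quantile normalisation both ribosomal RNAs passed the threshold in limma. Ribosomal RNA of the mitochondrion is the only ribosomal RNA considered here.

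Cox7a1, a subunit of cytochrome c oxidase best known from heart and muscle (chromosome 7, 30184171 to 30186028), was at 24.4 FPKM in male 3, 29.1 in male 7, 18.2 in male 4, 16.2 in male 2 and 29.1 in female 4. High RIN libraries ran from 1.58 to 20.4 FPKM with a median of 8.38, and female 6 alone among them reached the low RIN range. The difference for Cox7a1 was 2.33 (SE 0.39, limma adjusted p = 0.057). H2-Eb1, a chain of the class II major histocompatibility complex carried by antigen-presenting cells (chromosome 17, 34305877 to 34316199), was at 31.6 FPKM in female 4, 5.75 in male 2, 4.18 in male 3, 4.09 in male 7 and 1.51 in male 4, and at 0 to 3.00 in high RIN libraries. Female 4 was far above the rest, and male 4 lay within the high RIN range. The difference for H2-Eb1 was 2.51 (SE 0.38, limma adjusted p = 0.057).

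A pair of further genes shared that adjusted p of 0.057. Gm15417, annotated as antisense to Zbtb7b (chromosome 3, 89391850 to 89398779), held 5.75 to 9.95 FPKM in low RIN and 0 to 6.50 in high RIN libraries, where female 3 was the only one inside the low RIN range (difference 2.19, SE 0.34). Dcdc5, which the annotation lists as a transcribed pseudogene (chromosome 2, 106003336 to 106406151), was at 11.7 FPKM in male 4, 11.3 in male 3, 9.34 in female 4, 4.94 in male 2 and 2.91 in male 7. It was listed at 0 in all 7 middle libraries and at 0 to 1.47 in high RIN libraries, so the classes did not overlap (difference 2.53, SE 0.41). The reads carry no strand, so Gm15417 and Zbtb7b cannot be told apart, nor can Dcdc5 and Dnajc24, which overlaps it.

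The genes with the smallest p among those lower in low RIN included several of small-diameter nociceptors, the neurons that report painful stimuli. Acpp, a phosphatase of non-peptidergic nociceptors that turns AMP into adenosine (chromosome 9, 104288316 to 104337728), was at 63.2 FPKM in female 4, 68.6 in male 3, 83.0 in male 4, 85.8 in male 2 and 107 in male 7. High RIN libraries ran from 88.1 to 195 with a median of 131, and male 7 was the only low RIN library to reach them. The difference for Acpp was -0.98 (SE 0.19, limma adjusted p = 0.087). P2rx3, an ATP-gated channel of the same neurons (chromosome 2, 84998583 to 85037462), held 52.3 to 102 FPKM with a median of 82.8 in low RIN and 67.3 to 251 with a median of 99.6 in high RIN libraries. The classes overlapped widely, and male 5 and male 9, the male high RIN libraries, were the highest with 251 and 197. The difference for P2rx3 with sex in the model was -1.15 (SE 0.23, limma adjusted p = 0.093). Ssrp1 overlaps P2rx3 on the other strand.

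Scn10a, a voltage-gated sodium channel of nociceptors (chromosome 9, 119608456 to 119719032), was at 42.4 FPKM in female 4, 51.2 in male 3, 51.8 in male 2, 69.7 in male 4 and 73.1 in male 7, and at 65.8 to 114 in high RIN libraries. Only female 1, at 65.8, brought the high RIN range below 73.1. The difference for Scn10a was -0.87 (SE 0.18, limma adjusted p = 0.138). Its value was lowest of all in male 11, at 26.2 FPKM. Pknox2, a homeobox transcription factor, differed by -1.23 (SE 0.24, limma adjusted p = 0.093), with 8.46 to 21.5 FPKM in low RIN and 14.5 to 35.1 in high RIN libraries. Rspo2, a secreted enhancer of Wnt signalling, differed by -1.32 (SE 0.27, limma adjusted p = 0.127), with 4.09 to 10.1 against 8.10 to 34.6 FPKM. Gna14, a G protein subunit, differed by -1.22 (SE 0.26, limma adjusted p = 0.138), with 27.9 to 103 against 56.5 to 196 FPKM. The highest values of Rspo2 and Gna14 were both those of male 5.

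**Figure D3:**
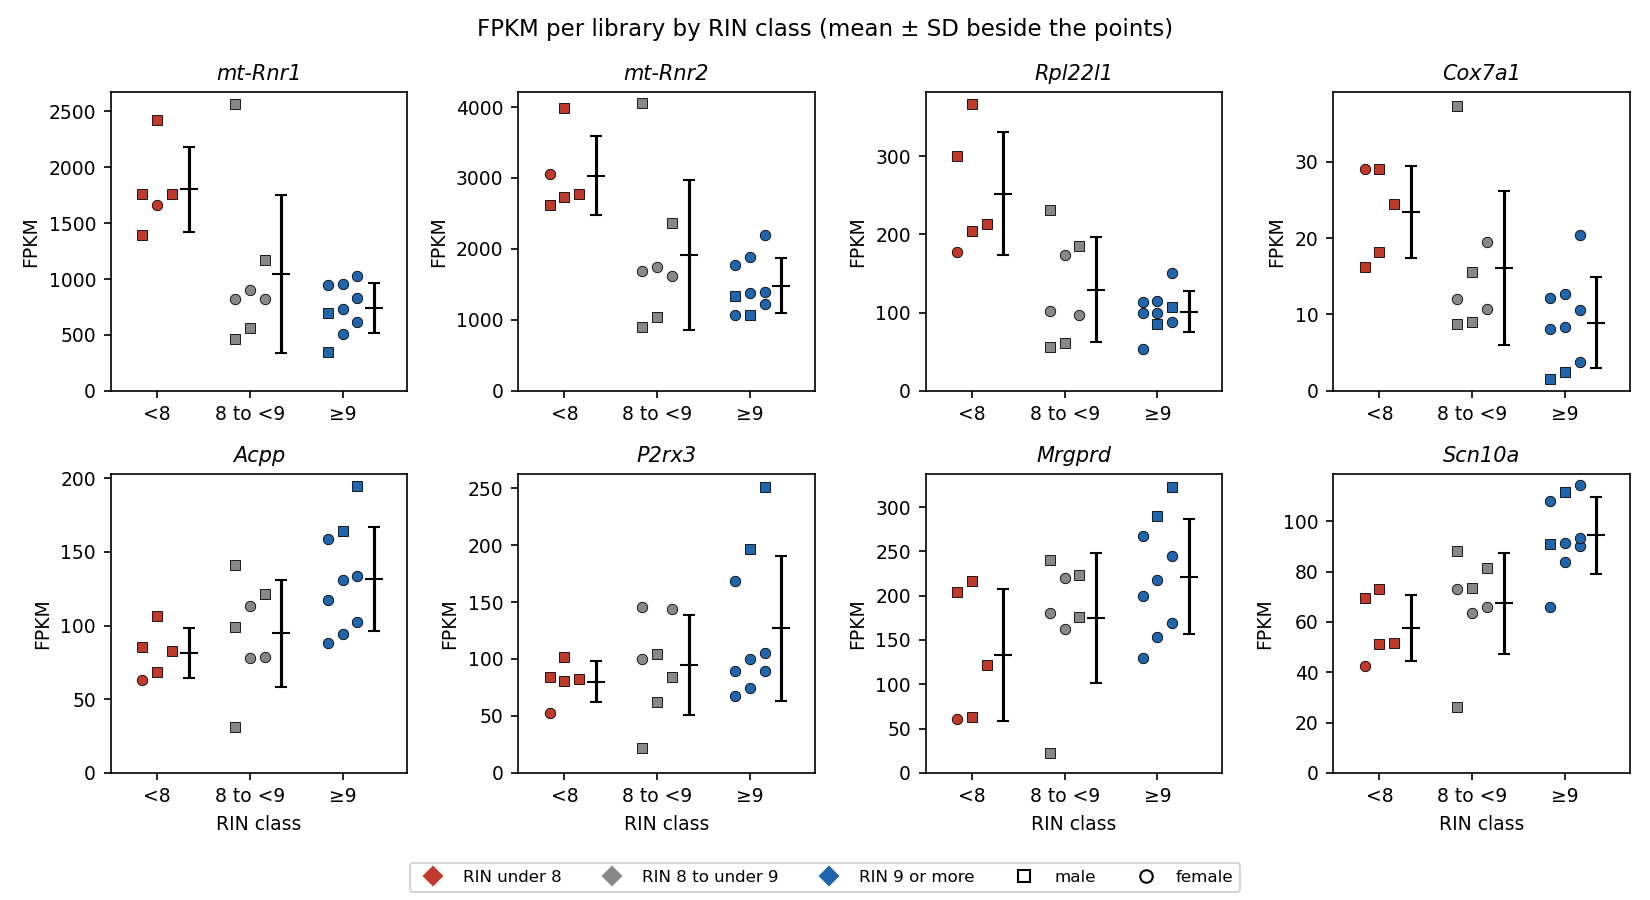
FPKM per library of 8 named genes in the 3 RIN classes (RIN under 8, n = 5, RIN 8 to under 9, n = 7, and RIN 9 or more, n = 9), 1 point per library, squares for males and circles for females, with the mean ± SD beside each class. For mt-Rnr1, mt-Rnr2 and Rpl22l1 the low RIN points lie above all high RIN points, while for Cox7a1, Acpp, P2rx3, Mrgprd and Scn10a the classes overlap.

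The genes whose classes did not overlap differed in length by direction. In 47 genes (0.35%) every low RIN library was above every high RIN library, and in 32 genes (0.238%) every low RIN library was below. The 47 had a median exon length of 2687 bases and 38 were shorter than 4130 bases, the median of all tested genes. Of the 32, 31 had a length, with a median of 6409 bases, and 4 were shorter than 4130 bases. The 47 held 3 of 13 mitochondrially encoded genes and 2 of 80 nuclear subunits of the respiratory chain and ATP synthase. They also held 8 of 84 cytosolic and 2 of 77 mitochondrial ribosomal proteins and 1 of 38 proteasome subunits. The 32 held none of these, but at a share of 0.238% lists of this size would be expected to hold next to none.

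Most genes of the respiratory chain and of the ribosomes were higher in low RIN libraries, although no member passed the threshold in limma. Glycolysis genes did not share this, with 6 of 16 higher and a median difference of -0.09. At an unadjusted p under 0.05 in limma, 1 of them was higher and none lower. The lists were read against all tested genes, of which 55.2% were higher in low RIN. All 13 mitochondrially encoded genes tested were higher, with a median difference of 1.05 and 8 at an unadjusted p under 0.05, against 7.59% of all genes. Their summed FPKM was 13731 to 22640 in low RIN and 6197 to 13585 in high RIN libraries, without overlap. The gap was narrow, between male 7 and female 6, and the total FPKM differs between libraries. As a share of that total with mt-Tl1 left out, the mitochondrially encoded genes were at 2.27% in male 7 and 2.34% in female 6, so the shares did overlap. The pair of genes outside the rule for named genes that follow here, mt-Nd5 and mt-Nd6, were chosen after their values were seen. mt-Nd5, a subunit of complex I, was at 942 FPKM in male 3, 806 in male 2, 726 in female 4, 716 in male 7 and 641 in male 4 and at 279 to 550 in high RIN libraries, without overlap (difference 1.00, SE 0.19, limma adjusted p = 0.082). mt-Cytb, of complex III, held 2847 to 5306 FPKM in low RIN and 1397 to 3541 in high RIN libraries (difference 1.05, SE 0.23, limma adjusted p = 0.138). mt-Nd6, encoded on the other strand, was listed at 0 in male 2 and in 6 high RIN libraries and at up to 698 in male 3. The other list of the respiratory chain, 80 nuclear subunits, had a median difference of 0.51, with 78 higher, 48 at an unadjusted p under 0.05 in that direction and none in the other. Ndufv2, a subunit of complex I, was at 268 to 412 FPKM in low RIN and 152 to 214.6 in high RIN libraries, without overlap (difference 0.74, SE 0.16, limma adjusted p = 0.139).

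Of 84 cytosolic ribosomal protein genes, 80 were higher, with a median difference of 0.41 and 37 at an unadjusted p under 0.05, and none was lower at that level. After quantile normalisation the median was 0.26 and 19 were higher at that level. Rpl22l1, a paralogue of the ribosomal protein gene Rpl22, was at 366 FPKM in male 3, 299 in male 4, 213.2 in male 7, 204 in male 2 and 178 in female 4 and at 52.8 to 150 in high RIN libraries, without overlap (difference 1.21, SE 0.26, limma adjusted p = 0.138). Rpl32, of the large ribosomal subunit, held 839 to 1585 FPKM against 541 to 807 (difference 0.64, SE 0.19, limma adjusted p = 0.241). Ribosomal protein genes have many processed copies, and reads mapping to more than 1 place were dropped, so these values are uncertain. Of 77 mitochondrial ribosomal protein genes 71 were higher, with a median of 0.38 and 18 at an unadjusted p under 0.05. Of 38 proteasome genes 33 were higher, with a median of 0.19 and 8 at an unadjusted p under 0.05, and after quantile normalisation the median was 0.10, with 1 higher and 2 lower at that level. The median exon length of these lists was 957 bases for mitochondrially encoded genes, 1696.5 for the nuclear respiratory subunits, 1736.5 for the cytosolic and 2255 for the mitochondrial ribosomal proteins and 2814 for the proteasome, all below the 4130 bases of all genes. The part of gene length in these differences was not tested by list. With each library's long minus short value added to the model, 945 genes had an unadjusted p under 0.05 in place of 1580, and none passed the threshold in limma.

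These group differences were as large without the library that carried most RNA of other cells. Without female 4 the medians were 1.25, 0.65, 0.56, 0.56 and 0.34, and with sex in the model that fit sets 4 against 2 male libraries. Apart from the mitochondrially encoded genes, the medians were lower without male 5. They were 0.35 for the nuclear respiratory subunits, 0.31 for the cytosolic and 0.24 for the mitochondrial ribosomal proteins and 0.15 for the proteasome. In that fit 17, 10, 5 and 0 of these genes were higher at an unadjusted p under 0.05. Over all genes 631 of 13444 were higher at that level, in place of 1021, so the fall in such genes was not particular to these lists. The mitochondrially encoded genes still had 8, with a median of 1.07. Male 11 was high in both larger lists as well. Its summed FPKM was 79554 for the nuclear respiratory subunits against 30278 to 50226 in low RIN and 21431 to 38019 in high RIN libraries, and 55773 for the cytosolic ribosomal proteins against 23371 to 37848 and 18638 to 26290. These sums were not scaled to the total FPKM of a library. That total was highest in male 11, at 870872 against 543862 to 709513 in the other naïve libraries. Summed FPKM of the low and high RIN libraries overlapped for both lists.

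Non-peptidergic nociceptor genes were the lowest of the lists of neuron types in low RIN libraries. The list marks small neurons of the skin and of itch, and its summed FPKM was 289 in female 4, 470.5 in male 7, 492 in male 4, 555 in male 3 and 590 in male 2. High RIN libraries ran from 588 to 834 with a median of 736, so that male 2 alone reached them. Of 12 tested genes 2 were higher and 10 lower, with a median difference of -0.71 and 4 lower at an unadjusted p under 0.05, against 4.16% of all genes. The median was -0.77 after quantile normalisation and -0.87 without male 5. Without female 4 it was -0.55, with 5 higher and 7 lower, of which 1 was higher and 3 lower at the unadjusted 0.05 level. In males alone 1 was lower at that level. Mrgprd, a receptor for beta-alanine in skin-innervating nociceptors, was at 60.7 FPKM in female 4, 63.1 in male 3, 122 in male 2, 204 in male 4 and 216.2 in male 7. In high RIN libraries it ran from 130 to 322 with a median of 217.8, so 3 low RIN libraries were below all of them and male 4 and male 7 were inside their range (difference -1.35, SE 0.31, limma adjusted p = 0.145). Mrgpra3, of itch neurons and chosen after its values were seen, had the opposite sign with a difference of 0.96 and an unadjusted p of 0.478.

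Most of the other neuronal lists lay near all genes or depended on single libraries. Peptidergic nociceptors, with 8 genes, had a median of -0.02 and none at an unadjusted p under 0.05. Calca, which encodes the peptide CGRP, differed by 0.03 (limma adjusted p = 0.988). Of 24 tested genes in the study's panel for nociception, 2 were higher and 6 lower at the unadjusted 0.05 level, among them P2rx3 and Scn10a, with a median of -0.06 that became 0.06 without male 5 and 0.15 with a satellite glial covariate. Genes of low-threshold mechanoreceptors and proprioceptors, 13 tested, had a median of 0.75 that was 0.35 without female 4 and -0.02 with that covariate. Pan-neuronal genes, 17 tested, did neither. Of these 12 were higher, with a median of 0.24 that ran from 0.14 to 0.31 without 1 library. At the unadjusted 0.05 level 3 were higher and 1 lower. Nefm, a neurofilament of large neurons, was at 383 to 1096 FPKM in low RIN and 247 to 891 in high RIN libraries (difference 0.78, SE 0.22, limma adjusted p = 0.231). Avil, whose promoter drives the sorted GFP, was at 507 to 888 FPKM in low RIN and 555 to 1220 in high RIN libraries (difference -0.55, SE 0.21, limma adjusted p = 0.318). All libraries thus held the defining gene of the sorted cells.

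Markers of vessel, connective tissue and immune cells were highest by far in 1 low RIN library, female 4. Summed over the genes of macrophages, lymphocytes and neutrophils, endothelial cells, and fibroblasts and pericytes, the FPKM was 1197 in female 4 and 50.4 to 166 in the other 21 naïve libraries. Endothelial genes, 7 tested, were all higher in low RIN with a median of 1.92 and 6 at an unadjusted p under 0.05, and the median was 0.45 with 1 such gene without female 4. Esam, an adhesion molecule of vessels, was at 47.1 FPKM in female 4, 6.90 to 11.6 in the other low RIN libraries and 2.07 to 13.1 in high RIN libraries (difference 1.92, SE 0.38, limma adjusted p = 0.093). Cd74, the invariant chain of class II molecules, was at 309 FPKM in female 4, with a low RIN median of 0.214 and a high RIN range of 0 to 7.26. Schwann cell genes, 12 tested, had a median of 1.05 that was -0.18 without female 4, fibroblast genes, 9 tested, 1.20 and -0.06, and macrophage genes, 6 tested, 1.08 and 0.54.

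Satellite glia, the cells most likely to remain on sorted neurons, were spread over both classes. Their 16 markers summed to 2674 to 6629 FPKM in low RIN and 2033 to 5557 in high RIN libraries, with a median difference of 0.38 that was -0.11 without female 4. With their mean level as a covariate the mitochondrially encoded genes had a median of 1.18 and the non-peptidergic nociceptors of -0.67. Erythroid genes moved with the classes in more than 1 library. Their summed FPKM was 196 in male 3 and 146 in female 4, 39.4 to 63.3 in the other low RIN libraries and 15.2 to 63.0 in high RIN libraries. All 4 tested were higher in low RIN, with a median of 1.72 and of 1.19 without female 4, and 3 had an unadjusted p under 0.05 in either case. Their part in the other differences was not tested. Hba-a1, an alpha globin with a near-identical copy, was at 1.72 to 35.2 FPKM in low RIN and 0.0761 to 7.76 in high RIN libraries (difference 2.20, SE 0.49, limma adjusted p = 0.142). Trunk Hox genes, 14 tested and low in 1 low RIN and 1 high RIN library, had a median of -0.17 that depended on single libraries: it was -0.73 without female 4, -0.46 without male 4, -0.36 without male 9 and 0.10 without male 2.

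**Figure D4:**
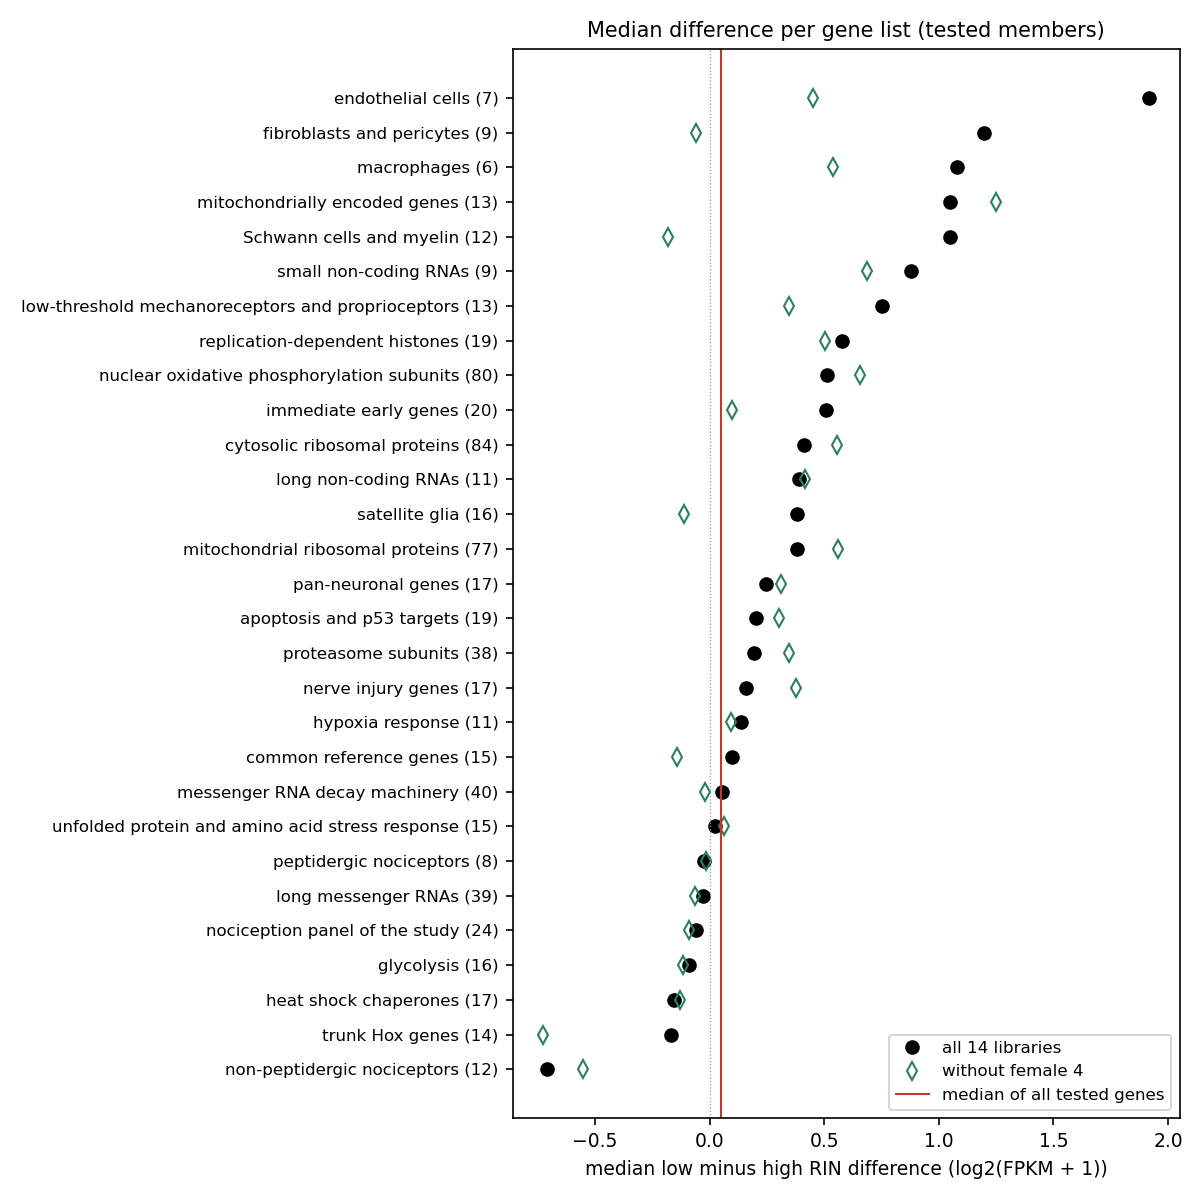
Median low minus high RIN difference on the log2(FPKM + 1) scale (horizontal axis) of each gene list with its number of tested members in brackets, for all 14 libraries (filled circles) and without female 4 (open diamonds), with the median of all tested genes, 0.05, as a red line. Mitochondrially encoded genes stay near 1 or above in both, non-peptidergic nociceptors stay below -0.5, and the markers of endothelial cells, fibroblasts, macrophages and Schwann cells move towards 0 without female 4.

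Among the lists for stress, cell death and RNA turnover, that of apoptosis and p53 held the most differences. Of its 19 genes, 5 were higher at an unadjusted p under 0.05 in limma and none lower. Over all genes, 7.59% were higher and 4.16% lower at that level. The median of the list was 0.20, and 1 gene was higher at that level without female 4. Cycs, which encodes the cytochrome c of the respiratory chain and of apoptosis, was at 159 to 358 FPKM in low RIN and 105 to 226.1 in high RIN libraries (difference 0.64, SE 0.27, limma adjusted p = 0.381). Of 17 heat shock chaperones 2 were higher and 1 lower at the unadjusted 0.05 level, and the median was -0.16. Hsp90ab1, the constitutive cytosolic chaperone, was at 1561 to 1824 FPKM in low RIN and 1659 to 2556 in high RIN libraries (difference -0.36, SE 0.12, limma adjusted p = 0.265). The messenger RNA decay machinery, 40 genes, had a median of 0.05 with 2 higher, the 4 tested ribonucleases and their inhibitor a median of -0.13 with none, the unfolded protein response, 15 genes, a median of 0.02 with 1 lower, and the hypoxia response, 11 genes, 0.14 with 2 higher at that level. Leaving out 1 library moved these medians to between -0.02 and 0.17 for decay, -0.23 and 0.12 for ribonucleases, -0.03 and 0.14 for the unfolded protein response and 0.09 and 0.45 for hypoxia.

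Immediate early genes, which neurons and other cells switch on within minutes of a stimulus such as dissociation, did not differ detectably. Of 20 tested, 18 were higher, with a median of 0.51 that was 0.10 without female 4, and none had an unadjusted p under 0.05. Atf3, a transcription factor of this list and of injured neurons, was at 7.06 to 106 FPKM in low RIN and 1.71 to 107 in high RIN libraries (difference 1.22, SE 1.01, limma adjusted p = 0.677). Nerve injury genes, 17 tested, had a median of 0.16 with 1 lower at an unadjusted p under 0.05. That median was -0.18 without male 4 and 0.37 without female 4, and with the satellite glial covariate it was 0.50, with 82.4% higher and 4 higher at an unadjusted p under 0.05. Messenger RNAs chosen for their great length, 39 tested with a median of 17717 bases, had a median of -0.03, with 1 higher and 1 lower at that level. The common reference genes, 15 tested, had a median of 0.10. Without 1 library these medians ran from -0.15 to 0.07 for the long messenger RNAs and from -0.14 to 0.18 for the reference genes. Gapdh, a glycolysis gene that the study used as a reference in qRT-PCR, was at 1184 to 1581 FPKM in low RIN and 1122 to 2046 in high RIN libraries (difference -0.30, SE 0.16, limma adjusted p = 0.484). Histone genes of the replication-dependent clusters, 19 tested, had a median of 0.58, with 4 higher and 1 lower at the unadjusted 0.05 level. Long non-coding RNAs, 11 tested, had a median of 0.39 with 4 higher. Over all genes, 7.59% were higher and 4.16% lower at that level. Without 1 library the medians ran from 0.43 to 0.64 for the histones and from 0.25 to 0.46 for the long non-coding RNAs. Malat1, a nuclear RNA, was at 951 to 1860 FPKM in low RIN and 367 to 1977 in high RIN libraries (difference 0.94, SE 0.40, limma adjusted p = 0.385).

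Taking RIN as a number over all 21 libraries with a value, 9 genes (0.0669%) passed the threshold in limma with sex as a covariate, 6 rising (0.0446%) and 3 falling (0.0223%) with RIN. An unadjusted p under 0.05 was reached by 1759 genes (13.1%), 830 rising (6.17%) and 929 falling (6.91%). Gpr160, an orphan receptor (chromosome 3, 30855950 to 30897192), rose with RIN by 0.68 per unit on the log2 scale (SE 0.12, limma adjusted p = 0.024). It was listed at 0 in male 3 and held 1.25 to 3.43 FPKM in the other low RIN libraries, 1.85 to 5.74 in the middle and 5.05 to 16.7 in the high RIN libraries, so low and high did not overlap. Slc22a18, a membrane transporter encoded in an imprinted region (chromosome 7, 143473721 to 143499334), rose by 0.44 (SE 0.07, limma adjusted p = 0.019). It was at 10.1 FPKM in male 7, 13.8 in male 3 and 15.2 in female 4 but at 28.0 in male 4 and 30.1 in male 2, within the high RIN range of 20.1 to 56.1.

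Gm15440 (chromosome 13, 51685529 to 51701041) rose by 0.59 (SE 0.09, limma adjusted p = 0.019). It was listed at 0 in male 7 and at 0.533 FPKM in male 3, held 3.26 to 5.40 in the other low RIN libraries and 5.80 to 14.8 in the high RIN libraries, and overlaps Sema4d. Map9, which binds microtubules, rose by 0.35 (SE 0.06, limma adjusted p = 0.036), Ccdc71 by 0.45 (SE 0.08, limma adjusted p = 0.037) and Slc37a4, the glucose phosphate transporter of the endoplasmic reticulum, by 0.42 (SE 0.08, limma adjusted p = 0.047). In Ccdc71 and Slc37a4 the low values were those of male 3 and male 7, at 1.09 and 1.19 FPKM and at 2.82 and 3.62 FPKM, while male 4 and male 2 lay within the high RIN range.

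Cer1, a secreted antagonist of BMP and Nodal (chromosome 4, 82881751 to 82885148), fell with RIN by 0.53 per unit (SE 0.09, limma adjusted p = 0.024), with 8.27 FPKM in male 7 and 6.70 in male 3 and at most 2.93 in the other 19 libraries with a RIN. Gm15446 (chromosome 5, 109923400 to 109943936) fell by 0.39 (SE 0.07, limma adjusted p = 0.024), with 10.4 FPKM in male 3, 7.83 in male 7, 6.67 in male 4, 5.76 in male 2 and 4.06 in female 4 against 1.72 to 4.35 in high RIN libraries.

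**Figure D5:**
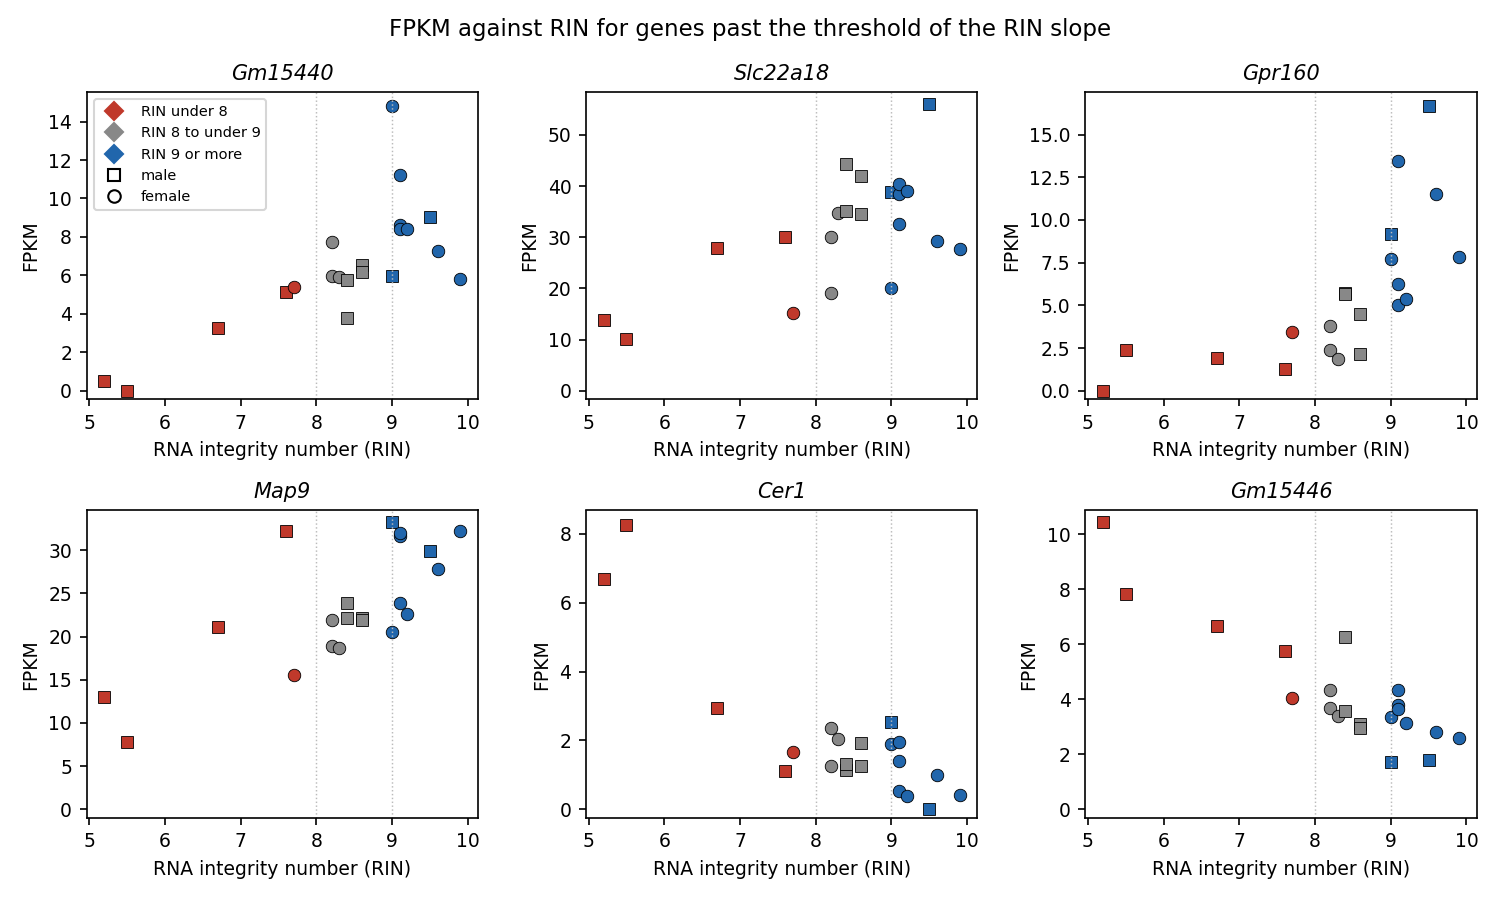
FPKM (vertical axis) against RIN (horizontal axis) for 6 of the 9 genes past the threshold of the slope with RIN, 1 point for each of the 21 libraries, squares for males and circles for females, coloured by RIN class, with dotted lines at 8 and 9. Male 3 and male 7, at a RIN of 5.2 and 5.5, carry the lowest values of Gm15440 and the highest of Cer1.

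The 9 calls depended on which libraries were included. Without male 3 and male 7 no gene passed in limma, and neither did any within the 16 libraries with a RIN of 8 or more, within males or within females. Leaving out the lowest RIN values also narrows the range of RIN. Without male 5, which had a RIN of 9.5, there were again 0 calls, as there were without the 4 libraries low in trunk Hox genes. Leaving out male 11 had the opposite effect: 373 genes passed, 187 rising and 186 falling, and all 9 genes were among them. The falling genes, 186 of 13444 tested, then included 7 of the 13 mitochondrially encoded genes and 11 of 80 nuclear respiratory subunits. They also held 6 of 84 cytosolic and 5 of 77 mitochondrial ribosomal protein genes and 4 of 38 proteasome genes. The nociception panel, the nerve injury list and the pan-neuronal list each had 1 rising and 1 falling gene. Messenger RNA decay and non-peptidergic nociceptors had 1 rising gene each. Apoptosis, histone, reference and erythroid lists had 1 falling gene each. With each library's long minus short value as a covariate, 33 genes passed, the 9 among them.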

How the data were processed

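Sequencing libraries of FACS-sorted sensory neurons were made with the SMARTer Ultra Low Input kit after RNA extraction in a single sex-matched batch, and sequenced on a HiSeq. The authors aligned reads to mm10 with STAR, keeping reads with 1 mapping place, used SAMtools to join lanes and Cufflinks for the FPKM values per gene that they deposited. Tool versions: not given in the sources used here. RIN is a score that the authors read for each library on a Bioanalyser Pico chip and deposited, and the deposited counts of input and uniquely mapped reads per library give the depth (24800048 to 40035653 reads in the classes compared). Columns of the authors' own comparisons, made with DESeq2, hold fold changes and p-values and were not used.

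FPKM are not counts, so counting error is not known from them. Genes that reached an FPKM of 1 in 3 or more of the 22 naïve libraries were tested on log2(FPKM + 1) with limma 3.58.1 in R 4.3.3, with an intensity trend and sex as a covariate, either between RIN classes (low minus high) or as a slope per unit of RIN, at a Benjamini-Hochberg adjusted p under 0.05. A fold change on this scale understates the change of low genes. The 8 measures per library were compared by exact permutation over libraries (2002 arrangements, two-sided) and related to RIN with 100000 permutations, in Python 3.11.15 with numpy 2.4.6 and scipy 1.17.1. Exon lengths came from GENCODE, release M21. Loci are given in mm10 coordinates counted from 1. The scripts were tested on simulated data. The deposited values list 51 gene identifiers more than once, and each listing was kept as a gene of its own.

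Alternatives changed the pseudocount, expression filter, scaling, covariates, weights and libraries, each library of a class being left out in turn. Genes were named as the 6 with the smallest p in each direction of each fit, since too few passed, and in each list the 3 with the highest mean FPKM and the 2 with the smallest p. The members and lists were chosen with earlier results of these data known. The nociception panel is the study's own. P-values measure the spread between pooled libraries. A single gene named by this rule is not reported here.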

Additional observations from a re-analysis of the deposited data

Results flagged for a closer look

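Within each RIN class, a library was singled out when its gap to the nearest other was a large part of the range of the class (Dixon's criterion). This applied to 23 of 126 groups checked. The criterion gives about 1 in 20 by chance for normally distributed values. That rate need not hold here, since FPKM were taken without a log and some of the items were genes named by their p. The groups also share libraries and genes, so they are not independent. Their causes were not tested.

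Male 11, a middle library with a RIN of 8.6, was singled out most often. Its long minus short value was -1.24 and its median correlation with the other libraries 0.851, against 0.894 to 0.916 in the other middle libraries. Its summed FPKM was 79554 for nuclear respiratory subunits, against 26324 to 38009, and 55773 for cytosolic ribosomal proteins, against 18984 to 27818. Neither sum was scaled to the total FPKM, which was 870872 in male 11 and the highest of the naïve libraries. mt-Rnr1 was at 2562 FPKM and Cox7a1 at 37.4 there, both above the other middle libraries, while Pknox2 at 4.73 and Scn10a at 26.2 were below them.

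Female 4, a low RIN library, held more RNA of other cells than the other low RIN libraries. Summed FPKM was 4410 for Schwann cells, against 856 to 1721, 344 for macrophages, against 6.68 to 56.2, and 47.8 for lymphocytes and neutrophils, against 0 to 10.9. It was 295 for endothelial cells, against 39.8 to 81.0, and 393 for fibroblasts and pericytes, against 11.2 to 31.7. H2-Eb1 was at 31.6 FPKM, against 1.51 to 5.75. In the middle class female 9 was high in fibroblast genes at 70.2, against 19.4 to 36.1, and in the high RIN class female 5 was high in macrophage genes at 28.2, against 10.5 to 19.3.

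The share of mitochondrially encoded genes was 6.25% in male 1 and 5.49% in male 5, the libraries in which mt-Tl1 was listed above 0. Male 5 was also high within its class in Rspo2, at 34.6 FPKM, and in Gna14, at 196. Male 1 was high among the middle libraries in Gm15446, at 6.25 FPKM. Female 9 had 921 genes listed at 0, against 376 to 486 in the other middle libraries. Male 3 had the lowest share of uniquely mapped reads of the low RIN class, 81.7%, against 85.9% to 86.4%.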

How the results depend on the processing

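No paired analysis was possible because each replicate number occurs once within a sex, so low and high RIN libraries of the same sex share none, and equal numbers across the sexes would pair males with females. The count of genes differing between the classes, 0 in limma, became 2 with a pseudocount of 0.1, 5 with quantile normalisation, 6 without the sex covariate, 1 with a satellite glial covariate, 3 in males alone, 2 without an intensity trend, 1 with all 21 libraries as 3 classes, 4 with RIN as a number over both classes and 68 in females alone, where 1 library stands against 7. It ran from 0 to 12 when 1 library was left out. The count with the slope, 9, became 47 with a pseudocount of 0.1, 22 without an expression filter, 15 with quantile normalisation, 18 with median-of-ratios scaling, 78 without the sex covariate, 19 with the glial covariate, 18 without an intensity trend, 1 with array weights, and 0 in males, without the 4 libraries low in trunk Hox genes and with ranks of RIN. Alternatives added after the data were seen gave 33 with the long minus short covariate and 0 within a RIN of 8 or more, in females, and without male 3 and male 7. It ran from 0 to 373 when 1 library was left out: 0 without male 5, 2 without male 3, 3 without male 7, 4 without male 9, 14 without female 1, 20 without male 4, 24 without female 4 and 373 without male 11. The long minus short difference was -0.28 between the longest and shortest groups of 10 (adjusted exact permutation p = 0.120), -0.19 by genomic span (0.324), -0.31 permuted within sex (0.289), -0.46 in males (0.533) and -0.30 without the libraries low in trunk Hox genes (0.162), and -0.36 to -0.25 without 1 library. The mitochondrial share difference was -0.675 points in males alone, 1.12 without mt-Tl1 and 0.507 to 1.10 without 1 library. The difference in genes detected was 27.7 at an FPKM of at least 5 and -312.4 to 128.4 without 1 library. The share of the 100 leading genes differed by -0.119 points without mitochondrially encoded genes, by -1.50 in males and by -0.559 to 0.906 without 1 library, and the mapped share by -0.622 in males. The mitochondrial share passed the threshold without mt-Tl1 and without male 5 (adjusted exact permutation p = 0.00799 and 0.0186), and the genes detected, the leading genes and the mapped share passed it under none of these alternatives. Without 1 library, genes at 0 differed by 46.1 to 336, mapped share by 0.222 to 1.83, input reads by 1.03271e+06 to 4.61699e+06 and median correlation by -0.0275 to -0.0155. With 4 male low and 2 male high RIN libraries, sex and RIN can be separated only in part. The list of lymphocytes and neutrophils gave no median at a mean FPKM of at least 5, since no member was left. For the named genes, class differences stayed on their side of the threshold in 4371 values under the alternatives and passed it in 35, and slopes stayed in 297, passed in 24 and lost it in 118. List medians were set against the SD of the list's log2 summed FPKM over the low RIN libraries, which is not the spread of the median itself. They moved by more than that SD in 61 values and by less in 866. The SD is wide where 1 library stands apart, as female 4 does for fibroblasts, so the 866 do not show that the medians were stable.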
